A study of Homo sapiens with 8 samples.

Results

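The SLIT ligands (SLIT1, SLIT2 and SLIT3) and ROBO receptors (ROBO1, ROBO2, ROBO3 and ROBO4) were followed in epithelial ovarian cancer cells silenced for SFPQ, an RNA-binding protein of the nucleus. All probes whose RefSeq accession belongs to these 7 genes, of 20503 genes that could be named on the array, were taken, which gave 9 probes. The family was chosen on measured values: SLIT3 was among the genes with the deepest fall in silenced MDAH cells. Values of the members in that contrast are therefore described, and nothing is read from their test. The choice rested on that contrast and not on the arrays of SKOV3 cells. Earlier results of these data were known when the members and lists were chosen, so the SKOV3 contrast is not a fully independent test. Total RNA was labelled with Cy3 and hybridized to 8 single-colour Agilent arrays, in 4 groups of 2.

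MDAH (MDAH-2774) and SKOV3, both established epithelial ovarian cancer lines, were each measured as 2 controls and 2 silenced samples, 1 under sh-SFPQ#2 and 1 under sh-SFPQ#3, delivered in lentiviral pLKO vectors. The sample labels give both controls of a line as carrying the control shRNA (sh_cnt), whereas the methods name 1 of them parental and the other sh-ctrl, so that only the absence of SFPQ silencing was used. No drug is named for these samples, and whether the cells were pools or clones, the time after transduction and whether replicates came from separate cultures are not given in the sources used here. All p-values therefore measure the spread between these samples, which may be technical. Where the fit holds no term for the shRNA, this spread also includes the difference between the 2 shRNAs.

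SLITs are large secreted proteins, and ROBOs are the single-pass transmembrane receptors that bind them. They are best known for repelling growing axons from the midline of the nervous system, and they also steer cell migration, vessel growth and the branching of epithelia. Binding of SLIT to ROBO recruits srGAP proteins and other regulators of the cytoskeleton to the tail of the receptor, and heparan sulfate proteoglycans such as syndecans and glypicans take part as co-receptors. ROBO4 is mainly a receptor of endothelial cells, and ROBO3 differs from its relatives in binding SLITs weakly or not at all in mammals. In epithelial ovarian tissue SLIT and ROBO genes are expressed, and their loss has been described in several epithelial tumours.

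SLIT2 and SLIT3, the ligands on which the results turn, are also host genes of microRNAs. In RefSeq (GRCh38.p14), MIR218-1 lies within SLIT2 on its strand, with the 5p arm at chr4:20528299-20528319 (+) and the 3p arm at chr4:20528342-20528363 (+). MIR218-2 lies within SLIT3, with the 5p arm at chr5:168768211-168768231 (-) and the 3p arm at chr5:168768168-168768189 (-). The mature sequences are shown because both host genes give the same 5p arm. Bases 2 to 8, the seed, are in capitals.
hsa-miR-218-5p: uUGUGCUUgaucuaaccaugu
hsa-miR-218-1-3p: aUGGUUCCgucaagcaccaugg
hsa-miR-218-2-3p: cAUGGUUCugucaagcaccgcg
The 5p arm is identical in both, and the 3p arms have different seeds. No value of a mature microRNA was used here, so the host transcripts below say nothing about these arms.

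The 100 bases upstream of the start of SLIT2 (chr4:20251805-20251904, +) and of SLIT3 (chr5:169301140-169301239, -), from RefSeq on GRCh38.p14, are shown because these were the ligands well above background in SKOV3 cells and both were lower in the silenced samples. Capitals mark the GC-box core GGGCGG, the CCAAT box, and the TATA-box form TATAAA where present, each searched on both strands, with no overlap between the marked matches.
SLIT2: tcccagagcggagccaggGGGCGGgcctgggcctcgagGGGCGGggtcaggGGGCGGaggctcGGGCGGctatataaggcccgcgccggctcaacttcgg
SLIT3: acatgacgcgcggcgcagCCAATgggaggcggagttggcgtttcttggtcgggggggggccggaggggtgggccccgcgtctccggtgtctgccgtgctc
Over the full 250 bases upstream, SLIT2 had 30 CpG dinucleotides and a GC content of 77.2%, and 87.6% of the 35116 RefSeq promoters had fewer CpGs. SLIT3 had 16 CpGs and a GC content of 62.8%, with 59.0% of promoters below it. The GC-box core was found upstream of SLIT2 and not SLIT3, the CCAAT box upstream of SLIT3 and not SLIT2, and the exact hexamer TATAAA in neither window. The printed SLIT2 sequence holds tatataag, a related run of letters that this search did not cover, so the absence of a TATA box is not shown. Of all promoters, 42.6% held the GGGCGG hexamer, 32.0% the CCAAT pentamer and 10.72% the TATAAA hexamer within the same length. These are matches of letters, and no binding was measured.

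The arrays lay on 1 slide, each line on its own row with controls before silenced samples, so that position and group cannot be told apart. On each array 47.7% to 57.0% of probes were flagged well above background, the call of the scanner software for a signal clearly over its local background, and no spot was saturated. The 75th percentile of intensity ran from 387 to 496 on 7 arrays and was 244 on that of MDAH cells with sh-SFPQ#3. Of 10 epithelial ovarian cancer markers, 9 were well above background on both MDAH control arrays and 7 on both SKOV3 control arrays. SFPQ itself (NM_005066) had intensities of 6174 and 7267 in MDAH controls against 2211 under sh-SFPQ#2 and 1045 under sh-SFPQ#3. The SKOV3 arrays had 12530.5 and 9796 in controls against 3723 under sh-SFPQ#2 and 2597 under sh-SFPQ#3. The silenced gene was thus lower on every silenced array of both lines. After scaling to the 75th percentile of each array, SFPQ was lower by 1.50 ± 0.24 (SE) on the log2 scale in MDAH cells (limma, Benjamini-Hochberg adjusted p = 0.0313) and by 2.01 ± 0.24 in SKOV3 cells (limma, adjusted p = 0.0263). When 1 array was left out, the adjusted p for MDAH cells lay between 0.0267 and 0.193, and that for SKOV3 cells between 0.0158 and 0.106. It was over 0.05 without any 1 control array of either line in both contrasts, and without the sh-SFPQ#3 array of the line concerned. In MDAH cells it was also over 0.05 with scaling to the array median (-1.39, limma, adjusted p = 0.0562) and without a filter on dim probes (limma, adjusted p = 0.0504).

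Which members could be measured differed between the lines. Of the 9 probes, 6 passed the filter, which asked for a signal well above background on each array of 1 group or more, and were tested, 1 each for SLIT2, SLIT3, ROBO1, ROBO2, ROBO3 and ROBO4. The remaining 3, both probes of SLIT1 and A_33_P3278877 of ROBO2, were on no array well above background. Each probe had 1 spot per array. In MDAH controls SLIT3, ROBO1, ROBO2, ROBO3 and ROBO4 were above background on both arrays, and in SKOV3 controls SLIT2, SLIT3 and ROBO3 were, with ROBO1 on 1 of 2 arrays.

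**Figure D1:**
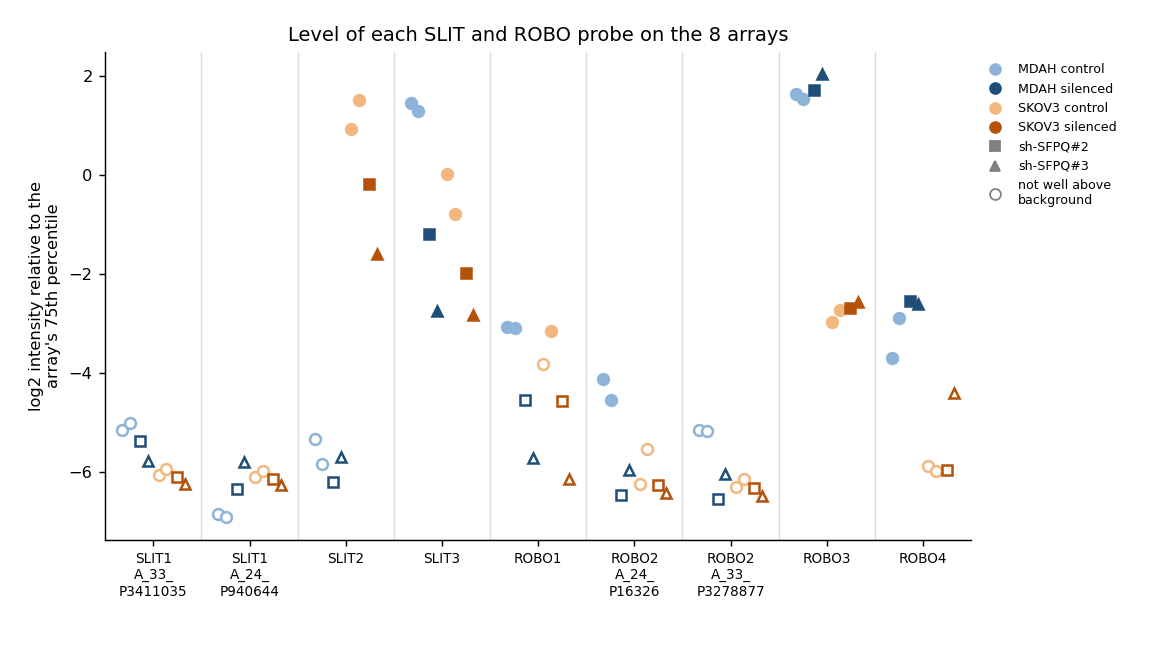
Level of each of the 9 SLIT and ROBO probes on the 8 arrays, as log2 intensity relative to the 75th percentile of the array (y axis), with 2 arrays per group and open symbols for signals not well above background. SLIT2 was measured on all 4 SKOV3 arrays and on no MDAH array, and SLIT3 on all 8; levels are compared within a probe, never between probes.

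Among the ligands, SLIT2 (NM_004787, probe A_23_P144348) was measured in SKOV3 cells and was not well above background in MDAH cells. Its intensity was 12.4 and 8.48 in MDAH controls, 5.53 under sh-SFPQ#2 and 4.74 under sh-SFPQ#3, and none of these was well above background. In SKOV3 cells it was 839.7 and 1111 in controls, 411 under sh-SFPQ#2 and 154 under sh-SFPQ#3, all 4 of them well above background. Every SKOV3 array, silenced ones included, thus lay above every MDAH array. Between the controls SLIT2 was at least 68.9-fold higher in SKOV3 cells, a bound set by the lowest signal well above background on the MDAH arrays (limma, adjusted p = 5.56e-05).

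SLIT3 (NM_003062, probe A_23_P58588) was well above background on all 8 arrays. In MDAH cells its intensity was 1359 and 1181 in controls, 177 under sh-SFPQ#2 and 36.7 under sh-SFPQ#3. In SKOV3 cells it was 444 and 226 in controls, 118 under sh-SFPQ#2 and 66.0 under sh-SFPQ#3. In both lines both silenced arrays lay below both controls, and the array with sh-SFPQ#3 was the lower of the 2. The mean level in controls was 3.37-fold higher in MDAH than in SKOV3 cells, which is a description, since the MDAH controls are part of the contrast that led to the family.

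The third ligand, SLIT1 (NM_003061), was not well above background in either line. Its probe A_33_P3411035 ranged from 4.47 to 15.1 in intensity over the 8 arrays, and A_24_P940644 from 4.02 to 6.61. The probes of the non-coding transcripts SLIT1-AS1 and SLIT2-IT1, looked at after their values were seen, were not well above background on any array either.

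Among the receptors, ROBO1 (NM_133631, probe A_23_P80503), the most widely expressed member of the family, was dim in both lines. Its intensity was 59.7 and 56.6 in MDAH controls, both well above background, against 17.5 under sh-SFPQ#2 and 4.69 under sh-SFPQ#3. On the SKOV3 arrays it was 31.3 and 43.6 in controls, the second of them well above background, against 19.6 under sh-SFPQ#2 and 6.60 under sh-SFPQ#3. None of the 4 silenced arrays was well above background, and in each line they lay below both controls. The controls of the 2 lines differed by 0.40 on the log2 scale, with a 95% interval from -0.97 to 1.78 (limma, adjusted p = 0.579), so that a difference between lines was not detectable with these arrays.

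ROBO2, the neighbour of ROBO1 on the same chromosome, was measured on the MDAH controls only. Its probe A_24_P16326 (NM_002942) had 28.6 and 20.9 there, against 4.60 under sh-SFPQ#2 and 3.94 under sh-SFPQ#3. The SKOV3 arrays had 5.80 and 8.36 in controls, 6.04 under sh-SFPQ#2 and 5.45 under sh-SFPQ#3, none well above background. Between controls the fitted difference was 1.56 higher in MDAH cells (limma, adjusted p = 0.00406), but no fold is given, because the MDAH level did not exceed the lowest signal well above background on the SKOV3 arrays. With the normexp background correction and quantile normalization this difference was 0.25 (limma, adjusted p = 0.193). The second ROBO2 probe, which ranged from 3.74 to 14.1 in intensity, was not well above background on any array.

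ROBO3 (NM_022370, probe A_23_P87082), the divergent receptor, was measured in both lines and at a much higher level in MDAH cells. Its intensity was 1555 and 1406 in MDAH controls, 1338 under sh-SFPQ#2 and 1004 under sh-SFPQ#3. The SKOV3 values were 56.3 and 58.4 in controls, 72.3 under sh-SFPQ#2 and 79.2 under sh-SFPQ#3, all well above background. The lines did not overlap, and ROBO3 was 21.7-fold higher in MDAH than in SKOV3 controls, 4.44 ± 0.18 (SE) on the log2 scale (limma, adjusted p = 5.48e-06).

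ROBO4 (NM_019055, probe A_23_P344421), the endothelial receptor and the neighbour of ROBO3, was likewise well above background in MDAH cells. Its intensity was 38.7 and 65.5 in controls, 69.3 under sh-SFPQ#2 and 40.2 under sh-SFPQ#3, all well above background. The SKOV3 values were 7.47 and 6.15 in controls, 7.46 under sh-SFPQ#2 and 22.3 under sh-SFPQ#3, none above it. ROBO4 was at least 1.63-fold higher in MDAH than in SKOV3 controls (limma, adjusted p = 0.00393). Of 5 endothelial markers, 2 were above background on both MDAH control arrays (CDH5 and VWF) and 2 on both SKOV3 control arrays (CDH5 and KDR), while PECAM1 and TEK were above it on both arrays of neither. Their summed level, in units of the 75th percentile, was 0.179 to 0.216 in MDAH controls and 0.313 to 0.494 in SKOV3 controls. These sums include markers not well above background, and the source of the ROBO4 signal was not tested.

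Leaving SLIT3 aside, 4 of the 5 tested members differed between the controls of the lines, SLIT2 lower and ROBO2, ROBO3 and ROBO4 higher in MDAH cells, against a background of 56.5% of all 20936 tested probes. Of the 5, SLIT2, ROBO1, ROBO2 and ROBO4 passed the filter on dim probes through 1 line only, which favoured a difference between the lines, so nothing about the members is read from the count. Among probes above background on all 8 arrays only ROBO3 remained, and it passed. The contrast shares its control arrays with both silencing contrasts. The members well above background were SLIT3 with all 4 receptors in MDAH controls. In SKOV3 controls they were SLIT2 and SLIT3 with ROBO3 and, on 1 array, ROBO1. These sets depend on detection, which differed between the lines. The lowest log2 signal well above background was -4.87 and -4.89 on the MDAH control arrays, against -4.06 and -3.91 on those of SKOV3 cells. ROBO2, at -4.32 in MDAH controls, lay below the SKOV3 values, and a difference of ROBO1 between the lines was not detectable.

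The effect of silencing on the family was tested in SKOV3 cells. SLIT2 and SLIT3, the measured ligands, were both lower with both shRNAs, as was ROBO1, but none of the 3 changes passed the threshold of 0.05 after adjustment over all tested probes. SLIT2 was 4.34-fold lower in silenced cells, -2.12 ± 0.48 (SE) on the log2 scale with a 95% interval from -3.26 to -0.97 (limma, adjusted p = 0.0905). SLIT3 was 4.05-fold lower, -2.02 ± 0.54 with an interval from -3.31 to -0.72 (limma, adjusted p = 0.122). ROBO1 had a fitted difference of -1.88 ± 0.58 and an interval from -3.25 to -0.50 (limma, adjusted p = 0.154). No fold is given for it, because 1 of the 2 control arrays was itself not well above background. Among all tested probes, 1.11% had a lower change than SLIT2 and 1.23% than SLIT3.

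Among the other receptors in SKOV3 cells, ROBO3 differed by 0.23 ± 0.18 (limma, adjusted p = 0.504), with an interval from -0.19 to 0.64, although both silenced arrays lay slightly above both controls. ROBO4 and ROBO2 were not above background in any SKOV3 group, so that their fitted differences, 0.75 and -0.45 (limma, adjusted p = 0.438 and 0.433), carry no measured change; that of ROBO4 came from the array with sh-SFPQ#3 and was -0.03 without it.

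In numbers, 0 of the 6 tested members passed an adjusted p under 0.05 in SKOV3 cells, where 1.16% of all tested probes did. With limma's unadjusted p under 0.05, 3 of 6 were lower, against 9.88% of all tested probes. Both silenced arrays lay below both controls for 4 of 6 members (SLIT2, SLIT3, ROBO1 and ROBO2), against 32.0% of all. The median change of the 6 was -1.17 on the log2 scale, and that of all tested probes -0.04. Of these 6, ROBO2 and ROBO4 had no level above background in SKOV3 cells.

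**Figure D2:**
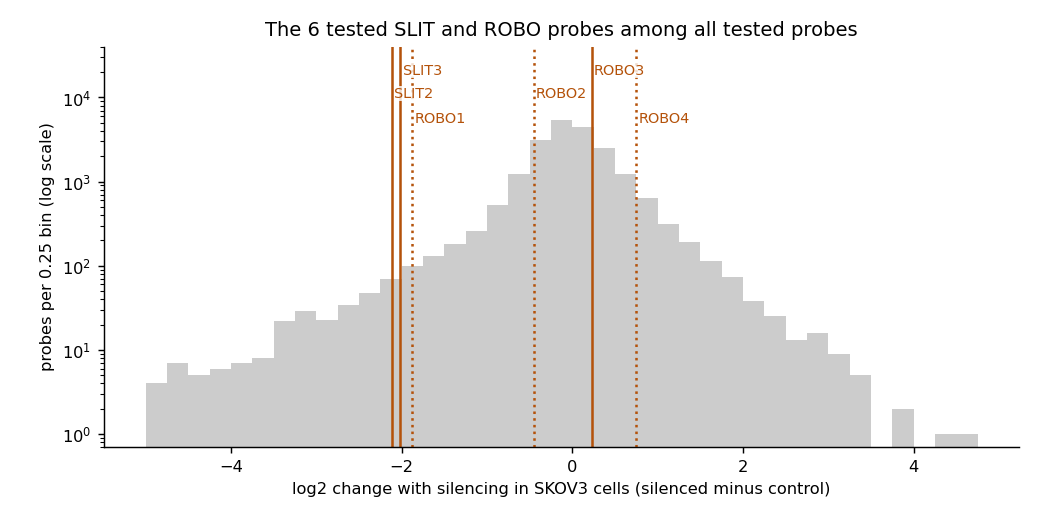
Log2 change with SFPQ silencing in SKOV3 cells (x axis, silenced minus control) for all 20936 tested probes, as a histogram with a logarithmic count axis, with the 6 tested SLIT and ROBO probes as lines, dotted for those not well above background on all 4 SKOV3 arrays. SLIT2 (-2.12), SLIT3 (-2.02) and ROBO1 (-1.88) lie together in the lower tail and ROBO3 (0.23) near the centre.

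Some of these calls changed under other settings. With the replicate block, which adds the control number and the shRNA number to the fit, SLIT3 (limma, adjusted p = 0.0279) and ROBO1 (limma, adjusted p = 0.0262) passed, 2 of 6 members. Without the SKOV3 array with sh-SFPQ#2, SLIT2 was lower by -2.83 (limma, adjusted p = 0.0225) and ROBO1 by -2.66 (limma, adjusted p = 0.0491), and without that with sh-SFPQ#3 they were lower by -1.40 and -1.09 (limma, adjusted p = 0.256 and 0.526). For SLIT3 the change ran from -2.44 to -1.59 over the fits that left out 1 array, and the adjusted p did not fall below 0.0675. With the normexp correction and quantile normalization of median pixel intensities, in which input, correction and scaling change together, SLIT2 was -1.72 (limma, adjusted p = 0.0340), and SLIT3 (-1.41) and ROBO1 (-0.48) did not pass (limma, adjusted p = 0.0727 and 0.142). All 3 were lower in silenced cells in every one of these fits.

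**Figure D3:**
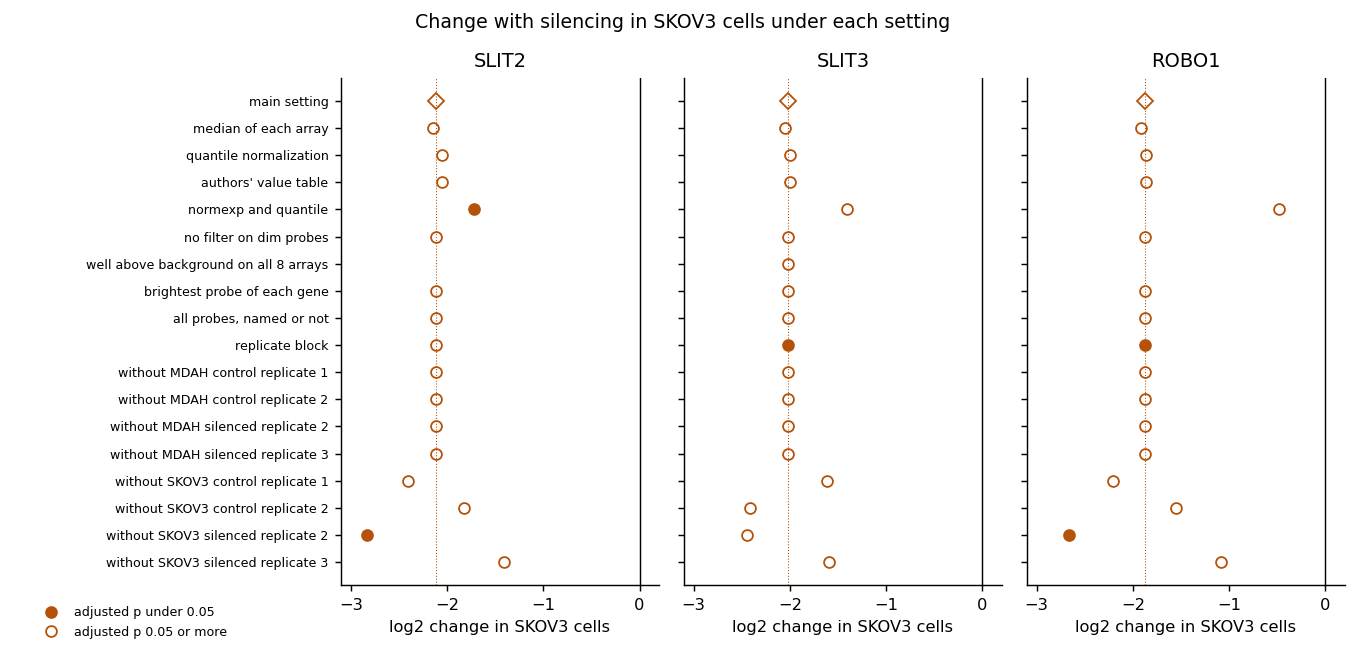
Log2 change of SLIT2, SLIT3 and ROBO1 with silencing in SKOV3 cells (x axis) in the main setting (diamond, dotted line) and in each alternative (rows), with filled symbols where the adjusted p was under 0.05. Every symbol lies left of 0, and a filled one appears for SLIT2 in 2 alternatives, for SLIT3 in 1 and for ROBO1 in 2; SLIT2 and ROBO1 have no value among probes above background on all 8 arrays.

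In MDAH cells, whose values led to the family, SLIT3 was 10.1-fold lower in silenced cells, -3.34 on the log2 scale. ROBO1 was at least 1.97-fold lower (fitted difference -2.05), and ROBO2 had a fitted difference of -1.88 and was not well above background in the silenced cells. For these 3 members both silenced arrays lay below both controls, where 21.7% of all tested probes did so. SLIT3 led to the family, and ROBO1 and ROBO2 passed the filter on dim probes through the MDAH controls only, which favoured a fall. Nothing about the members is therefore read from this count. ROBO3 and ROBO4 were 0.29 and 0.71 higher. These are scaled values: the unscaled intensities of ROBO4 overlapped between the groups, and those of ROBO3 were lower in silenced cells. SLIT2 was not well above background in MDAH cells. The fit passed SLIT3 and ROBO2, 2 of 6, and 2.27% of all tested probes; nothing is read from these, since the contrast was used to choose the family. Whether silencing acted differently in the 2 lines was not tested for the members.

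Both shRNAs were used in both lines and were compared with each other. Against the mean of the controls, SLIT3 was -2.57 under sh-SFPQ#2 and -4.10 under sh-SFPQ#3 on the log2 scale in MDAH cells, and -1.59 and -2.44 in SKOV3 cells. ROBO1 had -1.46 and -2.63 in MDAH cells and -1.09 and -2.66 in SKOV3 cells, but none of its silenced arrays was well above background. For SLIT2, measured in SKOV3 cells, the changes were -1.40 and -2.83. The changes of SLIT3 and SLIT2 were deeper with sh-SFPQ#3, whereas an order of the shRNAs was not measured for ROBO1. The difference between the shRNAs was fitted over both lines with terms for the shRNA and for the control number.

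In that fit SLIT3 was 2.29-fold lower with sh-SFPQ#3 than with sh-SFPQ#2, which is a description, since the silenced MDAH arrays led to the family. For ROBO1 no silenced array was above background, so no fitted difference between the shRNAs is given. SLIT2 had -0.46 over both lines, with an interval from -1.82 to 0.90 that includes the MDAH arrays where it was not measured (limma, adjusted p = 0.689). For ROBO3 (0.22), ROBO4 (0.76) and ROBO2 (0.18) the adjusted p was 0.528, 0.438 and 0.814 by limma. ROBO2 was not well above background on any silenced array, and ROBO4 was not on the silenced SKOV3 arrays. Their fitted values therefore carry no measured difference over both lines. Of the 5 members other than SLIT3, 0 passed the adjusted threshold, where 0.607% of all tested probes did. Only ROBO3 among them was well above background on all silenced arrays, so nothing about the members is read from this count. SFPQ itself was 0.44 lower with sh-SFPQ#3, which did not pass (limma, adjusted p = 0.298), and its part in the values of the members was not tested.

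**Figure D4:**
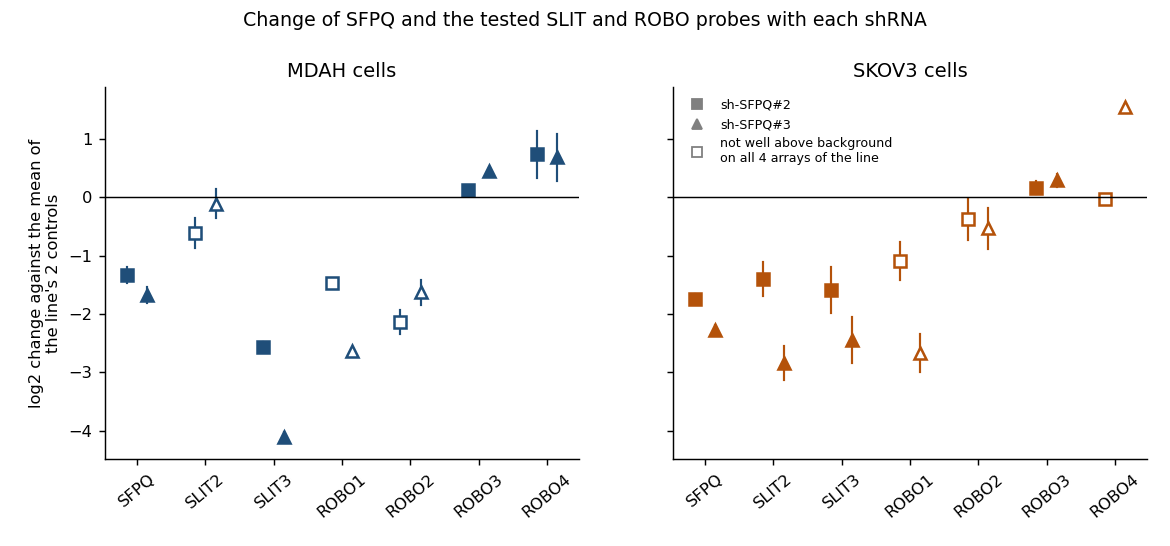
Log2 change of SFPQ and the 6 tested members with sh-SFPQ#2 (squares) and sh-SFPQ#3 (triangles) against the mean of the 2 controls of the line (y axis); bars run from the change against one control to that against the other, and open symbols were not well above background on all 4 arrays of the line. SLIT3 shows the deeper value with sh-SFPQ#3 in both lines, and ROBO3 stays within 0.50 of either control. The order of the ROBO1 symbols is not a measured difference, since its silenced signals were not well above background.

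The other components of the pathway were described from a list of 15 further ligands and co-receptors, of which 13 were tested. In SKOV3 cells 0 of 13 passed the adjusted threshold by limma, beside 1.16% of all tested probes, and 5 had an unadjusted p under 0.05, beside 19.8% of all. NTN1, the axon guidance cue netrin, had the lowest measured change (-2.52, limma, adjusted p = 0.239) and FLRT3, a membrane protein that binds ROBO1, the highest (0.98, limma, adjusted p = 0.172). In MDAH cells 0 of 13 passed by limma, beside 2.27% of all tested probes, and 4 had an unadjusted p under 0.05, beside 23.3% of all, with NTN1 lowest (-3.00, adjusted p = 0.153) and CXCR4, a chemokine receptor whose signalling SLIT can inhibit, highest (1.82, adjusted p = 0.0854). The median change of the list was -0.16 in SKOV3 and -0.44 in MDAH cells, beside -0.04 and 0.10 for all tested genes.

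Between the controls of the lines, 4 of these 13 genes were higher and 6 lower in MDAH cells, beside 56.5% of all tested probes that differed in either direction. Of the proteoglycans that serve as SLIT co-receptors, SDC1 (-1.98, limma, adjusted p = 9.48e-05) and GPC1 (-1.48, adjusted p = 0.00297) were lower and SDC4 was 1.02 higher (adjusted p = 0.0233). SDC3 had -0.46 (limma, adjusted p = 0.146), and SDC2 passed with a fitted difference of -2.18 (adjusted p = 0.000208) but was not well above background in both lines. PLXNA1, a plexin that can bind the cleaved C-terminal part of SLIT, had the lowest value among genes measured in both lines (-2.07, adjusted p = 0.000726). DAG1, dystroglycan, which binds SLIT, had -1.23 (adjusted p = 0.00197), and FLRT3 had -1.13 (adjusted p = 0.0223).

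The cytoplasmic effectors, which link the ROBO tail to the cytoskeleton, were described in the same way. Of 28 listed genes 27 were tested, and by limma 0 passed in either line, beside the same 1.16% and 2.27% of all tested probes. An unadjusted p under 0.05 was found for 5 in SKOV3 cells, beside 19.8% of all, and for 5 in MDAH cells, beside 23.3%. EVL, an Ena/VASP protein that binds actin filaments, had the lowest change in both, -1.35 in SKOV3 (limma, adjusted p = 0.231) and -2.29 in MDAH cells (adjusted p = 0.0812). The highest changes were those of USP33, a deubiquitinase that binds ROBO1, in SKOV3 cells (0.22, adjusted p = 0.509) and of CAP1, an actin regulator, in MDAH cells (0.56, adjusted p = 0.162). The median of the list was -0.17 in SKOV3 and 0.01 in MDAH cells. SRGAP1, a GTPase-activating protein that binds ROBO1 directly, had -0.88 in SKOV3 and -0.71 in MDAH cells (limma, adjusted p = 0.264 and 0.310).

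Between the lines 14 of the 27 effectors were lower and 2 higher in MDAH controls, 16 in all beside 56.5% of all tested probes, with a median of -0.72 beside -0.05 for all tested genes. The lowest measured values were those of SRGAP1 (-3.13, limma, adjusted p = 0.000573), PFN2, a profilin (-2.47, adjusted p = 0.000106), and PAK2, a kinase activated by Rac and Cdc42 (-1.87, adjusted p = 0.000427). Among those that passed and were measured in both lines, only CLASP2, a microtubule-binding protein, was higher in MDAH cells (0.50, limma, adjusted p = 0.0408).

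Of 65 genes of other axon guidance families (netrins, semaphorins, ephrins and their receptors), 47 were tested. In SKOV3 cells 0 passed by limma, beside 1.16% of all tested probes, and 16 had an unadjusted p under 0.05, beside 19.8%. Among genes well above background in both groups, EPHB2, an ephrin receptor, was lowest at -2.73 (limma, adjusted p = 0.0761) and SEMA3B, a semaphorin, highest at 1.83 (adjusted p = 0.0726). In MDAH cells 4 passed, beside 2.27% of all tested probes, and all 4 were lower: DSCAML1, a neuronal adhesion molecule, at -4.08 (limma, adjusted p = 0.0442), and UNC5A, SEMA5A and EFNA5, which were not measured in both groups. The medians of the list were 0.26 in both lines. Between the controls 20 of the 47 were higher and 15 lower in MDAH cells, beside 56.5% of all tested probes that differed. Among those measured in both lines were NTN4 (-5.78, limma, adjusted p = 8.03e-06), EFNB2 (-4.46) and NTNG1 (-4.87) at the low end and NTNG2 (2.98), EFNA1 (2.84) and RGMB (1.83) at the high end.

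**Figure D5:**
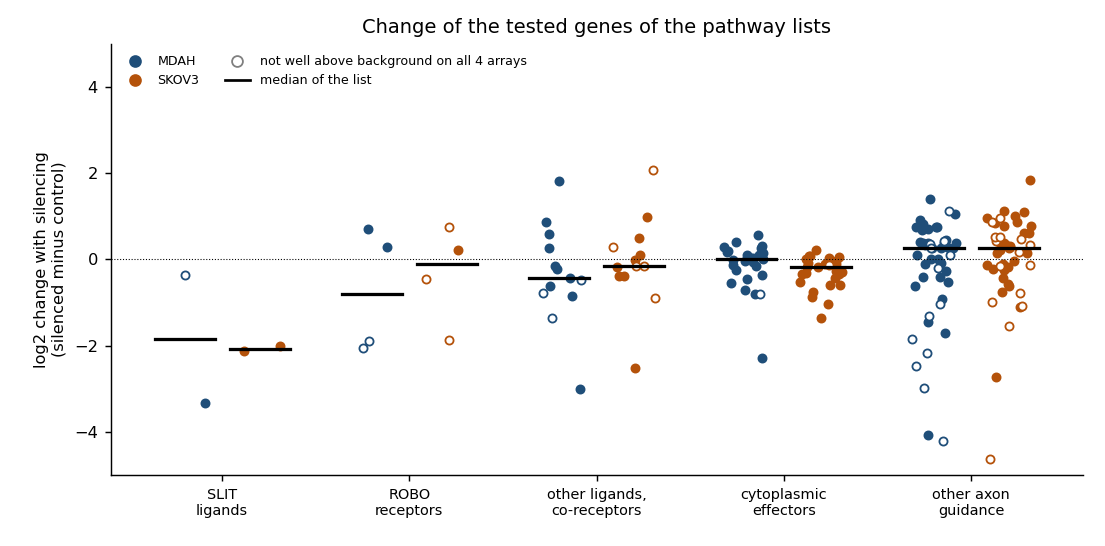
Log2 change with silencing (y axis) of each tested gene in the SLIT, ROBO and 3 further lists, in MDAH and SKOV3 cells, with the median of each list as a bar and open symbols for genes not well above background on all 4 arrays of a line. SLIT2 and SLIT3 lie near -2 in SKOV3 cells, where single genes of the further lists, NTN1 among them, lie lower. The medians of the 3 further lists lie between -0.44 and 0.26 in both lines.

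The genes whose levels over the 8 arrays were most like those of each member were listed as a description, by Pearson correlation among 15545 genes. The 8 arrays fall into 2 lines and 4 groups, so that a correlation reflects these and has no test. For SLIT3 they were LYPD6 (r = 0.987), CHSY3 (0.986) and ATRX (0.985), and for SLIT2 MALL (0.998), PFN2 (0.996) and AP2M1 (0.995). For ROBO1 they were PEPD, THSD4 and PLGRKT (0.982 to 0.984), for ROBO2 MSRB2, DLGAP1 and SCOC-AS1 (0.976 to 0.985), for ROBO3 ULK4P1, EMB and ADGRG6 (all 0.999) and for ROBO4 RDH14, TMEM187 and OFD1 (0.988 to 0.995). Within the family, SLIT3 and ROBO1 had r = 0.902 and SLIT3 and ROBO2 0.808, ROBO3 and ROBO4 had 0.930, and SLIT2 had -0.966 with ROBO3 and -0.970 with ROBO4. SLIT2 was well above background on SKOV3 arrays only and ROBO4 on MDAH arrays only, so their correlations rest partly on background signals. Among the 15545 genes ROBO1 ranked 166 and ROBO2 463 for likeness to SLIT3, and ROBO4 ranked 2236 for likeness to ROBO3. Many other genes therefore shared these patterns. ROBO1 and ROBO2 were not well above background on any silenced array, nor was ROBO2 in SKOV3 controls, and the MDAH arrays led to the family. No grouping of the family is read from the correlations.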

How the data were processed

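The 8 single-colour Agilent arrays (design on hg19) were put in 4 groups by the sample labels. Per the file headers, the authors extracted the spots with Agilent Feature Extraction 11.5.1.1 (10.7.3.1 in the submitters' processing notes) and deposited a background-subtracted, linear intensity per spot. They also deposited a table of log2 values, which matched quantile-normalized signals centred on the median of each probe over the arrays (r over 0.999 on every array) and served as an alternative.

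Control and outlier spots (209 to 310 per array) were dropped, log2 intensities of spots sharing a probe were averaged, and values were set relative to the 75th percentile of their array. Named probes, 28174 of 50599, were matched by RefSeq accession to a GRCh38.p14 table whose coordinates were used for the printed sequences alone. The 20936 probes with a signal well above background on each array of 1 group or more were fitted with limma 3.58.1 in R 4.3.3, all 4 groups together, with 4 residual and 2.75 prior degrees of freedom and Benjamini-Hochberg adjustment over all of them. The fit was checked on simulated data. The comparison of shRNAs added terms for control number and shRNA number, with 2 residual degrees of freedom.

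An "at least" fold sets the brighter mean against the higher of the dim probe's own signal and the lowest one well above background. A list used the brightest probe of each gene. Beside the members and SFPQ, the text names up to 3 highest and 3 lowest measured changes that passed in a list (if none passed, the highest and lowest) and the 3 genes most like each member; SRGAP1 on silencing and the unmeasured UNC5A, SEMA5A and EFNA5 were named after their values were seen. The members and lists were chosen with earlier results of these data known. Alternatives were other scalings (array median, quantile, normexp with offset 50 on the deposited median pixel intensities, the last chosen after the data were seen), filters on dim probes, the brightest probe per gene, unnamed probes, a replicate block, and leaving out each array; for SFPQ, those beyond quantile normalization and leaving out arrays were added after the data were seen. The number of arrays limits the precision.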

Additional observations from a re-analysis of the deposited data

Results flagged for a closer look

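The scaled values of 1 SLIT1 probe, A_24_P940644, moved in opposite directions with silencing. They were higher on both silenced MDAH arrays (mean 0.814178 on the log2 scale) and lower on both silenced SKOV3 arrays (mean -0.152668). The probe was not well above background on any array, so these values carry no measured change, and the difference was not tested.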

How the results depend on the processing

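Directions held for SLIT2, SLIT3, ROBO1 and ROBO3 in SKOV3 cells, and between the controls for all tested members, under every alternative run; the cause of each difference given here was not tested. In SKOV3 cells 0 of 6 members passed in the main setting, 1 with normexp, 2 with the replicate block and 0 to 2 when 1 array was left out. With the replicate block, which adds the control number and the shRNA number, SLIT3 (adjusted p = 0.0279) and ROBO1 (adjusted p = 0.0262) passed by limma and 976 probes in place of 242; deviations of same-numbered silenced arrays, which share an shRNA, correlated at 0.367 between the lines, and those of controls, which share only a number, at 0.0694. Between the controls 4 of 5 members passed, 7 of 8 without a filter on dim probes and 1 of 1 among probes above background on all 8 arrays. In MDAH cells both silenced arrays lay below both controls for 3 members, for 5 of 9 without the filter, for 1 of 2 above background on all 8 arrays, and for 3 to 4 without 1 array. Some fitted differences changed sign. ROBO4 in SKOV3 cells went from 0.75 to -0.033 without the sh-SFPQ#3 array (1.54 without the sh-SFPQ#2 array). ROBO2 in SKOV3 cells went from -0.45 to 0.013 with normexp. Between the shRNAs ROBO2 went from 0.18 to -0.013 with quantile normalization and with the authors' values. With normexp ROBO2 between the controls was 0.25 (adjusted p = 0.193), and in MDAH cells ROBO1 was -0.34, ROBO2 -0.32 and ROBO4 0.26. SFPQ ran from -1.68 to -1.33 in MDAH and from -2.27 to -1.74 in SKOV3 cells without 1 array, and in MDAH cells it did not pass with the array median (-1.39) or without the filter (-1.50). Calls over all probes ranged from 73 (no filter) to 976 in SKOV3 cells, with 518 under normexp, 155 for brightest probes and 378 with unnamed ones, and from 15 to 954 without 1 array. In MDAH cells 475 passed in the main setting, 984 with normexp, 1194 with the block, 780 with unnamed probes, 316 for brightest probes, 289 above background on all 8 arrays and 5 to 1532 without 1 array. Between the shRNAs 127 passed, 241 with the array median, 73 with quantile normalization and 0 without the filter. Scaling to the array median moved the median of all probes from 0.10 to 0.21 in MDAH cells, from -0.06 to -0.21 between the controls and from 0.01 to -0.14 between the shRNAs, and the share of calls that were higher in MDAH cells from 24.6% to 48.4%.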
